A study of Homo sapiens with 10 samples.

Results

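The 10 genes described here are the transcription factor ATF4, 8 genes that are widely used as readouts of ATF4 (ATF3, DDIT3, TRIB3, SESN2, DDIT4, CHAC1, ASNS and PSAT1), and STC2, a secreted glycoprotein also induced by ATF4. They are 10 of 58037 gene entries in the deposited tables, and all 10 were found by symbol. The group was put together with earlier results of these data in view. The measure that chose it was the difference in RNA between A549/DDP and A549 cells, so that difference is given below as a description. The number of the 10 genes past a threshold in that contrast is printed beside the share over all genes, and it is no evidence, since the choice of the genes fixed it. A549 is a lung adenocarcinoma cell line, and A549/DDP is a derivative resistant to cisplatin (DDP). Both were grown in the same medium, and no drug treatment is named in the labels. For each line, 2 input libraries of fragmented poly(A) RNA and 2 libraries enriched with an antibody against N6-methyladenosine (m6A) were sequenced. A further A549 input pair, labelled like the first but for a full stop after each title, was kept apart as the second pair. The labels do not say which experiment it belongs to, and it may be the input of another experiment on the same line. A549 was bought from a supplier and A549/DDP came from another laboratory, so resistance and the history of each culture cannot be told apart. Nothing states that the 2 libraries of a line came from separate cultures, so the spread between them may be technical.

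ATF4 is the effector of the integrated stress response. Kinases that sense amino acid shortage, misfolded protein in the endoplasmic reticulum (ER), viral RNA or heme shortage phosphorylate the translation factor eIF2alpha. Bulk translation then slows, while the ATF4 mRNA is translated more through its upstream open reading frames. ATF4 pairs with C/EBP family proteins on composite DNA elements and switches on genes for amino acid synthesis and import, tRNA charging, redox control and, when stress persists, cell death.

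The first A549 pair held 35286514 and 34570074 estimated counts and the A549/DDP pair 29225501 and 33971561, whereas the second A549 pair held 855034 and 982036, of which 75.2% and 73.9% were mitochondrial. Of 6 markers of lung epithelial cells all passed the filter on low counts, but unevenly. KRT7, KRT8 and KRT18 were each at 1213 CPM (counts scaled to library size, the usual counts-per-million scale) or more in all 4 deep inputs. CDH1 was at 33.6 and 83.4 CPM in A549 and at 312 and 249 CPM in A549/DDP. KRT19 was at 29.4 and 41.1 CPM in A549, at 7.19 CPM in A549/DDP replicate 1 and at 0 in replicate 2, and EPCAM was at 1.91 to 5.67 CPM. By edgeR, with p adjusted over all genes, KRT8, KRT18 and CDH1 were higher and KRT7 was lower in A549/DDP. The part of these marker differences in the values below was not tested. Of 6 markers of blood, vessel and connective tissue cells, only COL1A1 passed that filter, at 7.11 to 17.7 CPM. CDKN2A, which A549 has lost, had at most 11 counts in a library.

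All 10 genes were lower in both A549/DDP inputs than in both A549 inputs. Among all 16406 genes tested, 32.7% showed that arrangement of the 4 libraries. The median log2 fold change of the 10 genes was -2.18, against -0.00 for all genes tested. Their log2 fold changes (A549/DDP against A549, edgeR, on counts scaled by library) ran from -4.91 to -0.87. In edgeR (quasi-likelihood, p adjusted by Benjamini-Hochberg across every gene tested), 7 of the 10 were below an adjusted p of 0.05, all lower. The background is 8.00% of genes called lower and 6.85% called higher, and nothing is read from the comparison. In these bulk libraries, fewer expressing cells and less RNA per cell cannot be told apart.

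**Figure D1:**
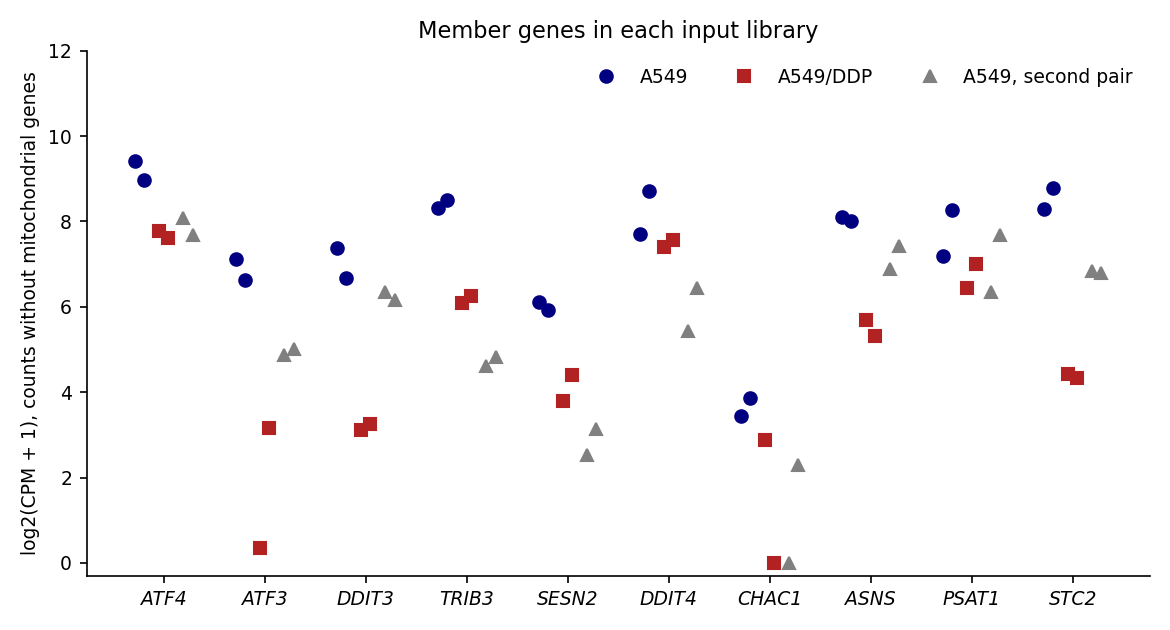
Level of each of the 10 genes in each input library, as log2(CPM + 1) with mitochondrial genes left out of the total. Each symbol is 1 library, for A549 (circles), A549/DDP (squares) and the shallow second A549 pair (triangles). Every square lies below both circles of its gene, and the triangles lie above the squares for 4 genes and below them for 3. No share over all genes was counted for the positions of the triangles.

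ATF4 itself is the head of the pathway. Its level was 810 and 624 TPM (transcripts-per-million, a scale that accounts for transcript length) in the A549 inputs, and 250 and 230 TPM in the A549/DDP inputs. The groups did not overlap, and the ratio of the mean levels was 2.99. On scaled counts ATF4 went from 613 ± 174 CPM to 203 ± 17.2 CPM (SD, n = 2 each), a log2 fold change of -1.59 (SE 0.23). ATF4 has processed pseudogenes that could take up reads, but in the tables they held at most 51.6 estimated counts in any of these libraries (ATF4P3, A549/DDP replicate 1), beside 6381 for ATF4 in that library.

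The transcription factors downstream of ATF4 showed some of the widest gaps. DDIT3, which encodes the pro-apoptotic factor CHOP, was at 323 and 212 TPM in A549 and at 15.0 and 16.7 TPM in A549/DDP. Its scaled counts fell from 139 ± 56.4 CPM to 7.93 ± 0.579 CPM (SD, n = 2 each), a log2 fold change of -4.13 (SE 0.35). ATF3, a stress-induced factor of the same leucine zipper class, was at 189 and 198 TPM in A549. In A549/DDP it was at 0.39 TPM in replicate 1 and 20.1 TPM in replicate 2. The A549/DDP inputs therefore differed from each other by far more than the A549 inputs, although both stayed far below them. The log2 fold change of ATF3 was -4.91 (SE 1.19), and it was -3.99 without A549/DDP replicate 1 and -8.81 without A549/DDP replicate 2.

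TRIB3 is a pseudokinase induced by ATF4 and CHOP that feeds back to dampen both. It had 212 and 248 TPM in A549 and 45.8 and 54.0 TPM in A549/DDP. The libraries of each line lay close together, at 347 ± 9.25 CPM and 69.6 ± 4.87 CPM (SD, n = 2 each), and the log2 fold change was -2.32 (SE 0.17).

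SESN2 and DDIT4 both restrain the growth kinase complex mTORC1, the first as a leucine-sensing sestrin and the second through the TSC complex. SESN2 had 31.5 and 29.1 TPM in A549 and 5.81 and 9.07 TPM in A549/DDP, with a log2 fold change of -2.04 (SE 0.31). DDIT4 had 198 and 426 TPM in A549 and 161 and 176 TPM in A549/DDP. The higher A549 library carried most of that gap: the log2 fold change of DDIT4 was -0.87 (SE 0.30) and was -0.37 without A549 replicate 2. DDIT4 is also a target of hypoxia and glucocorticoid signalling, and it was the least reduced of the 10 genes.

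CHAC1, which breaks down glutathione, was the least abundant of the 10. It had 11.1 and 20.0 TPM in A549, 6.44 TPM in A549/DDP replicate 1, and no count in A549/DDP replicate 2. Its log2 fold change of -1.93 had an SE of 1.80, so the fitted size is barely larger than its error. Against the limit of 3 counts that the empty library allows, which is 0.0860 CPM and covers counting error only, the A549 mean was at least 138-fold higher than in A549/DDP replicate 2 alone. The 185 counts in A549/DDP replicate 1 gave 6.24 CPM, against 11.9 ± 1.77 CPM in A549 (SD, n = 2).

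The enzymes of amino acid synthesis differed from each other. ASNS, asparagine synthetase and a classic ATF4 target, had 279 and 247 TPM in A549 and 46.0 and 43.8 TPM in A549/DDP. Its log2 fold change was -2.63 (SE 0.22), with tight libraries in both lines. PSAT1, the aminotransferase of serine synthesis, had 113 and 252 TPM in A549 and 70.8 and 103 TPM in A549/DDP. The lowest A549 library and the highest A549/DDP library were thus close, and the log2 fold change was -1.13 (SE 0.35), with -0.59 without A549 replicate 2.

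STC2 encodes stanniocalcin-2, a secreted glycoprotein that inhibits the protease PAPP-A and is induced by ER stress and by hypoxia. It had 176 and 175 TPM in A549 and 14.4 and 25.2 TPM in A549/DDP. On scaled counts it was at 384 ± 66.2 CPM in A549 and 19.6 ± 1.07 CPM in A549/DDP (SD, n = 2 each), a ratio of 19.6 and a log2 fold change of -4.29 (SE 0.21). Its ratio on the TPM scale was smaller, at 8.85. Among the 16406 genes ordered from the lowest log2 fold change, STC2 stood at place 679, next to DDIT3 at place 700 and ATF3 at place 614.

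The difference between the 2 scales for STC2 comes from the effective length by which the authors' TPM divides the counts. This length was 2775 and 4051 bases in A549 and 2169 and 1159 bases in A549/DDP, so the tables assigned the STC2 reads to a different mix of long and short isoforms in each library. ATF3 also had unequal lengths, at 1142 and 788 bases in A549 and 1052 and 599 bases in A549/DDP. There the gap was between replicates as much as between lines. ATF4, DDIT3, SESN2, DDIT4 and PSAT1 changed little in effective length between the 4 libraries. Fitted with limma on log2(TPM + 1), a scale that understates changes of low genes, STC2 had a log2 fold change of -3.13 and ATF3 of -5.17. On log2(TPM + 0.1) these were -3.19 and -5.95, so the added 1 mattered little for STC2.

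**Figure D2:**
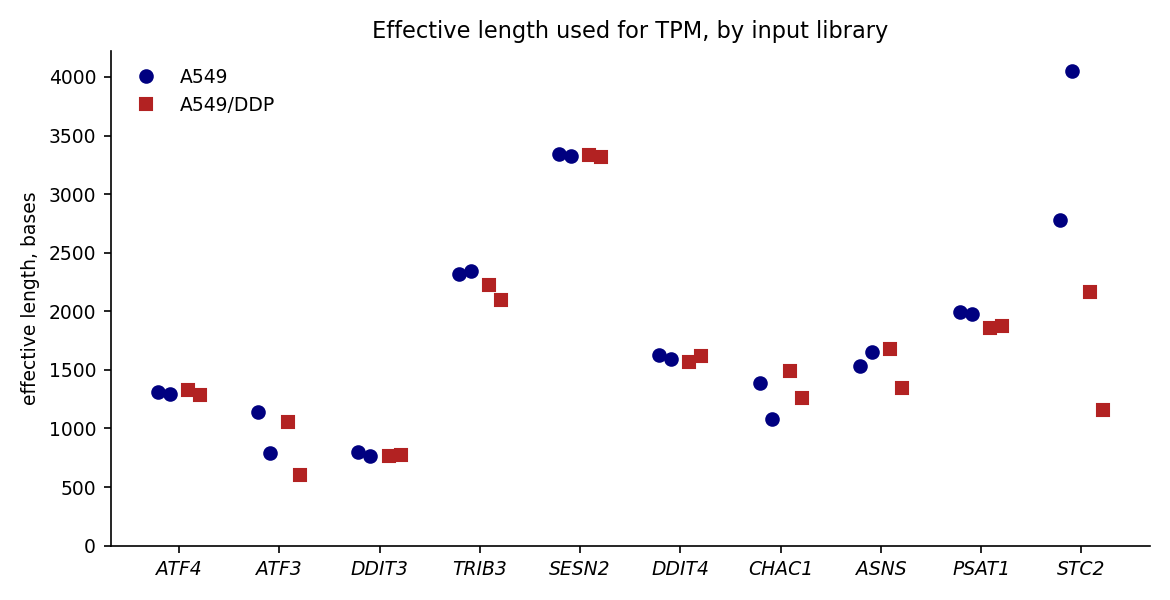
Effective length in bases that the tables used for each of the 10 genes, 1 symbol per input library (circles A549, squares A549/DDP). STC2 spreads from 1159 to 4051 bases, while SESN2 stays between 3321 and 3344 bases in all 4 libraries.

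On the TPM scale, which is per length, levels could be set in order within each line. In A549 the mean TPM ran from ATF4 (717) through DDIT4 (312), DDIT3 (267), ASNS (263), TRIB3 (230), ATF3 (194), PSAT1 (182) and STC2 (175) to SESN2 (30.3) and CHAC1 (15.6). The libraries of PSAT1 overlapped those of DDIT4, DDIT3, ASNS, TRIB3, ATF3 and STC2, and those of DDIT4 overlapped all of these but STC2. The order from the second to the eighth place is therefore mostly not set. In A549/DDP the order was ATF4 (240), DDIT4 (168), PSAT1 (86.8), TRIB3 (49.9), ASNS (44.9), STC2 (19.8), DDIT3 (15.9), ATF3 (10.2), SESN2 (7.44) and CHAC1 (3.22). Here TRIB3 overlapped ASNS, ATF3 overlapped each of STC2, DDIT3, SESN2 and CHAC1, STC2 overlapped DDIT3, and SESN2 overlapped CHAC1. ATF4 was the highest of the 10 in both lines, overlapping no other gene.

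The second A549 pair did not give the same picture for every gene. It held 109 counts of ATF4, 69 each of ASNS and PSAT1, 52 of STC2, 35 of DDIT3, 31 of DDIT4, 14 of ATF3, 12 of TRIB3, 3 of SESN2 and 1 of CHAC1, summed over both libraries. With mitochondrial genes left out of the total, 9 of the 10 genes lay below both libraries of the first A549 pair, and PSAT1 overlapped them. So did 13 of the 15 upstream genes and 13 of the 16 ER chaperone and XBP1 arm genes described below lie below both. Against the A549/DDP inputs on the same scale, ATF3, DDIT3, ASNS and STC2 lay above both libraries and TRIB3, SESN2 and DDIT4 below both. ATF4, CHAC1 and PSAT1 overlapped. Of the 15 and 16 genes, 1 and 0 lay above both, and 11 and 15 below both. No share over all genes was counted for these positions, and this scale divides by the library total only. They are therefore not read as particular to the 10 genes. By edgeR, second pair against first, the median log2 fold change was -0.74 for the 10 genes and -0.65 for all genes. In the second pair STC2 was at 113 and 109 CPM, beside 20.6 and 19.3 CPM in A549/DDP. TRIB3 was at 23.6 and 27.3 CPM, beside 67.1 and 75.0 CPM in A549/DDP. For SESN2 the 3 counts amount to 6.41 CPM with an exact 95% Poisson interval of 1.32 to 18.7. Such an interval covers counting error only, and that of SESN2 reaches the A549/DDP level. The intervals of TRIB3 (13.3 to 44.8 CPM) and DDIT4 (45 to 94 CPM) did not reach it, DDIT4 being at 167 and 188 CPM in A549/DDP.

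With the second pair in place of the first, 7 of the 10 log2 fold changes stayed negative, among them STC2 at -3.47, ASNS at -2.70 and DDIT3 at -4.20. Those of TRIB3, SESN2 and DDIT4 turned to 0.48, 0.36 and 0.43. In that fit the median of all 13815 genes tested was 0.80, and these 3 values lay below it by 0.32, 0.44 and 0.36, with SEs of 0.42, 0.90 and 0.32. Such gaps are within or near 1 SE, so no reduction of these 3 genes was detectable against the second pair. Leaving mitochondrial genes out of the fit left these 3 values as they were. The second pair differs from the first in depth and mitochondrial share as well as in label, and the part of each in these values was not tested.

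**Figure D3:**
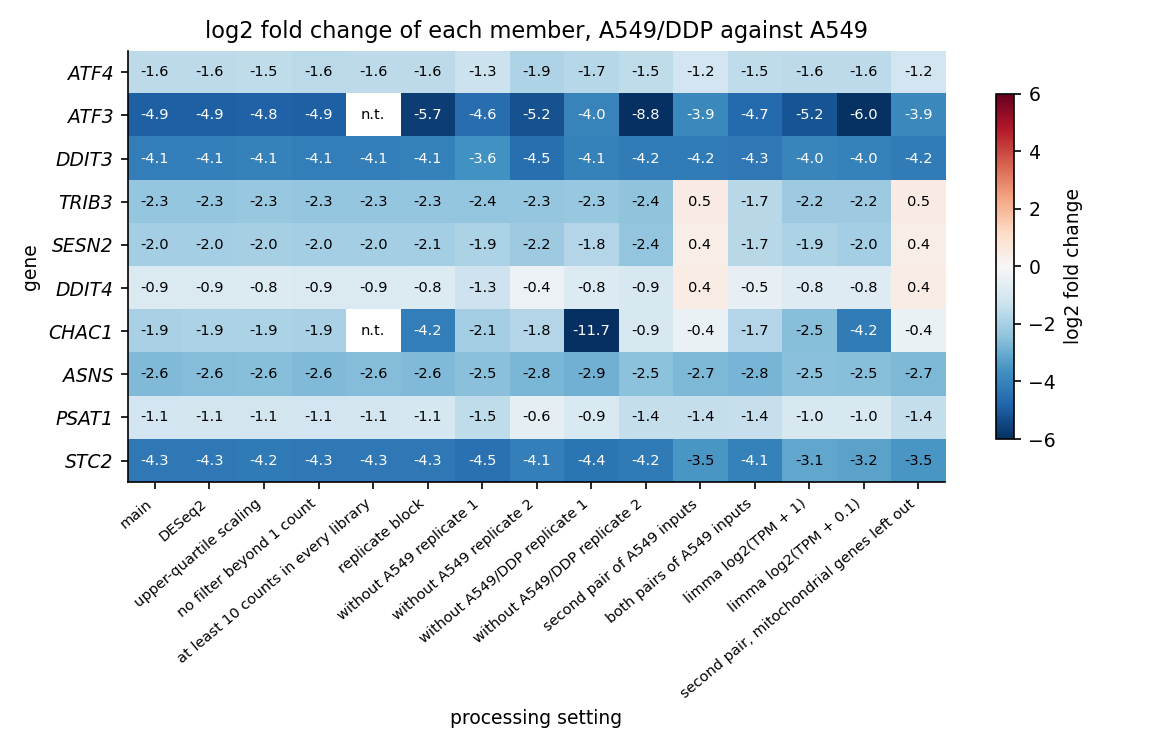
log2 fold change of A549/DDP against A549 for each of the 10 genes (rows) under each processing setting (columns), with the value printed in each cell and n.t. where the gene did not pass that filter. Cells are blue for lower in A549/DDP, and the values beyond the colour scale, CHAC1 at -11.68 and ATF3 at -8.81, come from fits in which the 1 A549/DDP library left held 0 counts of CHAC1 or 8 counts of ATF3. Only the columns with the second A549 pair alone hold positive values, for TRIB3, SESN2 and DDIT4.

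Beyond the 10 genes, 45 further genes of the ATF4 programme were examined. By edgeR with Benjamini-Hochberg adjustment over all genes tested, 25 of the 45 were lower in A549/DDP and 1 was higher, with a median log2 fold change of -1.01. Over all genes 8.00% were called lower and 6.85% higher, with a median of -0.00. The list was drawn up with earlier results of these data known, so nothing particular to it is read from this. The median was -1.01 without A549/DDP replicate 1 and -1.04 without A549/DDP replicate 2. With the second A549 pair in place of the first, 9 were lower and 5 higher. Their median was then -0.09, which lay below the median of 0.80 for all 13815 genes tested. In that fit 2371 of all genes were called higher and 1387 lower.

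The aminoacyl-tRNA synthetases, which charge tRNAs with amino acids, were lower in A549/DDP than in the first A549 pair almost throughout. Of 12 measured, 11 were lower, with a median log2 fold change of -1.33, and WARS1 did not pass the test. CARS1, for cysteine, fell from 415 ± 1.05 to 63.1 ± 16.2 CPM (SD, n = 2 each), a log2 fold change of -2.72 (SE 0.23, edgeR adjusted p = 0.0029). AARS1, for alanine, was 4.78-fold lower in A549/DDP, at 258 ± 11.5 against 1234 ± 124 CPM, and YARS1, for tyrosine, was 4.32-fold lower. With mitochondrial genes left out of the total, the second A549 pair lay below both A549/DDP inputs for 9 of the 12 and above both for 0. It also lay below both for 11 of the 15 upstream genes and 15 of the 16 ER chaperone and XBP1 arm genes described below. That position is therefore not particular to the synthetases. In the second pair AARS1 was at 208 and 187 CPM, beside 270 and 257 CPM in A549/DDP. In the edgeR fit with that pair, 2 of the 12 were lower and 3 higher. Their median was -0.30, which lay below the median of 0.80 for all genes.

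Genes of amino acid and one-carbon synthesis did not move as one. Of 10, 3 were lower and 1 higher. MTHFD2, a mitochondrial folate enzyme, had a log2 fold change of -2.14 (edgeR adjusted p = 0.0061). CBS, of the transsulfuration pathway, had 125 and 118 CPM in A549 and 9.45 and 0.774 CPM in A549/DDP, a log2 fold change of -4.58 (SE 1.00, edgeR adjusted p = 0.033). CBS has a near-identical copy in the reference genome, so its reads are uncertain. ALDH18A1, which starts proline synthesis, was the 1 gene higher, at 254 and 211 CPM against 96.1 and 95.9 CPM (log2 fold change 1.28, edgeR adjusted p = 0.0094). Among 8 amino acid transporters 3 were lower and none higher: SLC7A1, the cationic amino acid carrier (log2 fold change -1.69), SLC38A2 (-1.09), and the glutamine carrier SLC1A5 (-0.79).

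Of 15 other targets and partners of ATF4 or CHOP, 8 were lower and none higher. PPP1R15A, known as GADD34, recruits a phosphatase to eIF2alpha and so ends the response. It fell from 1203 and 817 CPM in A549 to 40.8 and 50.6 CPM in A549/DDP, a log2 fold change of -4.47 (SE 0.27, edgeR adjusted p = 0.0016). NUPR1, a small stress-induced chromatin protein, fell from 54.1 and 31.9 CPM to 1.21 and 0.774 CPM (log2 fold change -5.44, SE 0.50, edgeR adjusted p = 0.0035). TNFRSF10B, the death receptor DR5 that CHOP induces, had a log2 fold change of -1.62 (SE 0.28, edgeR adjusted p = 0.017).

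The RNA of the kinases that start the response was not detectably different. Log2 fold changes were 0.18 (SE 0.17) for EIF2AK1, the heme-regulated kinase, -0.43 (SE 0.20) for EIF2AK2, the RNA-activated kinase, -0.00 (SE 0.35) for EIF2AK3, the ER kinase PERK, and -0.35 (SE 0.22) for EIF2AK4, the amino acid sensor GCN2. The edgeR adjusted p ranged from 0.19 to 1. Phosphorylation was not measured here. Of 9 genes for eIF2, eIF2B and the constitutive phosphatase subunit, 2 were lower: EIF2S2, the beta subunit of eIF2 (508 ± 53.0 against 148 ± 23.7 CPM, SD, n = 2 each), and PPP1R15B, the constitutive partner of the eIF2alpha phosphatase (log2 fold change -1.42). OMA1 and DELE1, which relay mitochondrial stress to EIF2AK1, did not pass the test.

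The ER chaperone and XBP1 arm is the branch of the unfolded protein response that runs beside ATF4. Its 16 genes had a median log2 fold change of 0.47, against -0.00 for all genes tested. With the second A549 pair in place of the first, their median was 0.32, which lay below 0.80 for all genes. In that fit 4 of the 16 were higher and 2 lower, where 2371 of all 13815 genes were called higher and 1387 lower. By edgeR against the first pair, 4 were higher and 1 was lower, where 6.85% of all genes were called higher and 8.00% lower. CRELD2, an ER stress-induced secreted factor, was at 6.69 and 17.3 CPM in A549 and at 56.7 and 44.7 CPM in A549/DDP (log2 fold change 2.08, SE 0.48, edgeR adjusted p = 0.039). CALR, the lectin chaperone calreticulin, was 347 ± 41.3 CPM against 813 ± 62.6 CPM (SD, n = 2 each; log2 fold change 1.23, edgeR adjusted p = 0.0090). ERN1, the sensor IRE1alpha, was the 1 gene lower, with a log2 fold change of -1.76 (SE 0.25, edgeR adjusted p = 0.0098). The number of these 16 genes past the test was 10 without A549 replicate 2 and 2 without A549/DDP replicate 1.

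Promoter windows of the 10 genes were searched for the composite C/EBP-ATF element, because it is the DNA site through which ATF4 acts. RefSeq windows of GRCh38.p14, from 250 bases before to 50 after each start, gave 16 windows for the 10 genes. The element was written TGATGNAAN and sought on both strands. It was found in windows of ASNS, ATF3 and CHAC1, 3 of 10 genes, while 4.45% of all 27305 genes with a window and 3.61% of all 35116 windows hold it. The 250 bases before the start of these 3 are shown, 5′ to 3′ on the gene's strand, with the match in capitals.
ASNS (chr7:97872409-97872658, minus strand): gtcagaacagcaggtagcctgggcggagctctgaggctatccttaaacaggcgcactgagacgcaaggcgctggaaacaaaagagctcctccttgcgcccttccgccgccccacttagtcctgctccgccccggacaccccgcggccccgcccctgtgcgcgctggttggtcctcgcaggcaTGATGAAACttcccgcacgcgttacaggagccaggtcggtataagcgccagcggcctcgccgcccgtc
CHAC1 (chr15:40953221-40953470, plus strand): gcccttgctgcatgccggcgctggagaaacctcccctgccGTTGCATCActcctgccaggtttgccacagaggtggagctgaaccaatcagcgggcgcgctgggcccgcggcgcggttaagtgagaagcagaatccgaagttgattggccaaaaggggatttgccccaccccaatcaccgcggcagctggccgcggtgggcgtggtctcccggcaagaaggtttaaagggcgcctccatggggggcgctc
ATF3 (chr1:212565157-212565406, plus strand): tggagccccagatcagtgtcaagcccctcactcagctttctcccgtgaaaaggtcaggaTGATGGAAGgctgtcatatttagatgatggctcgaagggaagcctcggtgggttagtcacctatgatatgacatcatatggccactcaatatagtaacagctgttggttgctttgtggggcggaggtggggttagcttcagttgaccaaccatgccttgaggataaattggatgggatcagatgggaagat

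In ASNS the match began 68 bases before the start and read in the direction of the gene. In CHAC1 it began 210 bases before the start and read against the gene, so the letters shown are the reverse complement of the searched ones. The ATF3 match began 191 bases before the upstream start, at the 5′ end of the gene, and is not in the window of the other ATF3 start. The ASNS match likewise lies at 1 of the 2 ASNS starts. No match says only that these letters are not in these windows. The same search found the element in 7 of the 10 aminoacyl-tRNA synthetases with a window, and in 1 of 16 ER chaperone and XBP1 arm genes. The cyclic AMP response element TGACGTCA was in no window of the 10 genes, and in 2.25% of all genes with a window. The ER stress element (ERSE) was in none of the 10 genes and in 5 of the 16 ER chaperone and XBP1 arm genes, beside 0.0916% of all genes with a window. Since the cyclic AMP response element and the ERSE matched in no window of the 10 genes, no overlap between motif types could arise there.

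The m6A peak lists give where the authors called peaks, with a p-value, but no level. They held 26320 and 14576 peaks in A549 and 27244 and 10661 in A549/DDP, so the 4 lists differ in length. All 10 genes had a peak in at least 1 list, and 4 of them (ATF4, DDIT3, TRIB3 and DDIT4) in all 4. In both A549 lists 8 of the 10 genes had a peak, where 27.1% of the genes tested for expression did. In both A549/DDP lists 5 of the 10 had one, where 19.5% of the genes did. Both shares cover genes of any level that passed the filter on low counts. The 10 genes ran from 15.6 to 717 mean TPM in A549, and the part of RNA level in these counts was not tested. With every list cut to 10661 peaks, or at p at or below 1e-05, the counts of the 10 genes were 3 in A549 and 2 in A549/DDP. No share over all genes was counted at these settings, so the shares above do not apply to them.

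ATF4 was called near both of its ends. A region at chr22:39520564-39520909 (hg38), which begins 5 bases from the 5′ end of the gene, was called in all 4 lists. The next region, chr22:39521599-39522537, which ends 149 bases from the 3′ end of the gene, was also called in all 4. Another, between them at chr22:39521303-39521549, was called in both A549/DDP lists and in neither A549 list. It was the 1 such region among the 28 regions of the 10 genes, where 3.09% of all 37903 regions had this pattern. When peaks had to share 50% of the shorter one there was none, and without A549/DDP replicate 2 there were 6. The lowest p at ATF4 was listed as 0 in both A549 lists and was 4e-13 and 3.2e-08 in the A549/DDP lists.

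ATF3, CHAC1 and SESN2 had peaks in both A549 lists and in neither A549/DDP list, 3 of 10 genes where 4.63% of genes did. ATF3 had 5 and 4 peaks in the A549 lists, spanning 1451 and 1102 exonic bases. CHAC1 had 2 peaks in each, with 1 region at chr15:40953550-40953697, 79 bases from the 5′ end of the gene. SESN2 had 1 and 2 peaks, and the shared region at chr1:28280765-28281258 lies 1233 bases from its 3′ end. By region, 7 of the 28 regions of the 10 genes were called in both A549 and neither A549/DDP list, beside 6.12% of all regions. All 7 lie in ATF3, CHAC1 and SESN2, so they repeat the count by gene and add no separate result. These 3 genes were also the 3 lowest in A549/DDP by TPM, at means of 10.2 for ATF3, 7.44 for SESN2 and 3.22 for CHAC1. The part of the lower RNA in the missing calls was not tested.

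**Figure D4:**
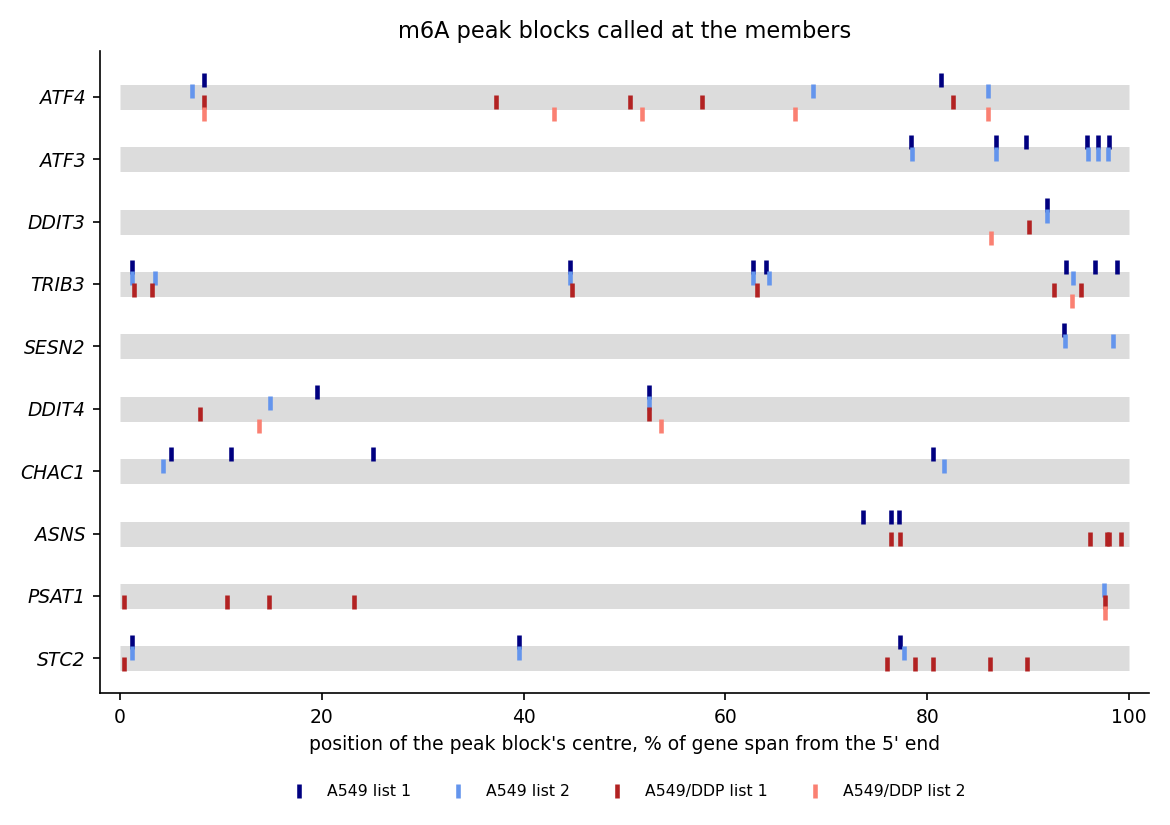
m6A peak blocks at the 10 genes, each mark being the centre of 1 exon block of a called peak, placed along the gene span (introns included) in percent from the 5′ end. The 4 rows of marks on each bar are the A549 lists (blue) and the A549/DDP lists (red). ATF3, SESN2 and CHAC1 carry no red mark, while ATF4, DDIT3, TRIB3 and DDIT4 carry marks of all 4 lists.

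STC2 kept its peaks in 1 of the 2 A549/DDP lists although its RNA was much lower there. A region at chr5:173328108-173328407, 7 bases from the 5′ end of the gene, and one at chr5:173317303-173323019 were called in both A549 lists and in A549/DDP list 1. A549/DDP list 1 held 6 STC2 peaks over 1104 exonic bases, including 2 regions nearer the 3′ end that no A549 list held. A549/DDP list 2 held none. That list was the shortest of the 4.

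DDIT3 had 1 region, chr12:57516734-57517269, which ends 146 bases from the 3′ end of the gene and was called in all 4 lists. Its p-value was 0.0087 and 0.015 in A549 and 3.2e-08 and 6.9e-08 in A549/DDP, while its RNA was 323 and 212 TPM in A549 and 15.0 and 16.7 TPM in A549/DDP. A p-value also depends on read depth, so it is no level of m6A. DDIT4 had 2 regions, chr10:72273969-72274508 near the 5′ end and chr10:72274763-72275301, each called in all 4 lists. TRIB3 had a region at its 5′ end called in 3 lists and a long one, chr20:388215-397061, called in all 4. ASNS had peaks in A549 list 1 and A549/DDP list 1 only, with p between 3.5e-07 and 0.012. PSAT1 had a region near its 3′ end, chr9:78329099-78329546, called in A549 list 2 and in both A549/DDP lists.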

How the data were processed

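The members and the lists around them were chosen with earlier results of these data known. Sequencing was paired-end on strand-specific dUTP libraries; the submitters' processing notes name STAR, RSEM, bedtools and hg38, with no versions. The authors deposited gene tables per input library with RSEM-style estimated counts (expected counts), TPM and FPKM, the last not used. For each m6A library the authors deposited peaks with a p-value. The peak caller is not given in the sources used here. Expected counts were rounded. After filterByExpr and TMM scaling, edgeR 4.0.16 compared 2 with 2 inputs by quasi-likelihood, with Benjamini-Hochberg adjusted p. CPM values carry this scaling, except where mitochondrial genes were left out. SE is the log2 fold change over the root of F. The fits were also run on simulated counts that vary less between libraries than these data. That run checks the code and lends no weight to the calls made here. DESeq2 1.42.0, limma 3.58.1 on TPM and other settings were alternatives. Ensembl identifiers gave 56948 of 58037 symbols. Peaks were merged into regions wherever their exon blocks had 1 or more bases in common on a strand; replicate numbers of the peak lists follow the titles; for the A549 m6A samples the deposited files carry the numbers the other way round, so A549 lists 1 and 2 may be exchanged. Distances are from RefSeq gene spans (GRCh38.p14). Exon and UTR annotation was not used here. All members and the eIF2alpha kinases are named, and per subgroup of a list up to 3 genes with the largest change among those past an adjusted p of 0.05 and at least 5 CPM. Replicate numbers did not pair the inputs (correlation of same-numbered deviations 0.021).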

Additional observations from a re-analysis of the deposited data

How the results depend on the processing

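All 10 genes kept a negative log2 fold change under DESeq2, upper-quartile scaling, other filters, limma on TPM, both A549 pairs together and each library left out, except that ATF3 and CHAC1 did not pass the filter of at least 10 counts in every library. With the second A549 pair alone, TRIB3 (0.48), SESN2 (0.36) and DDIT4 (0.43) were positive, also without mitochondrial genes, an alternative added after seeing the data. The median of the 10 genes was then -1.30, beside 0.80 for all genes in that fit. With both pairs it was -1.70, beside 0.01 for all genes. With the replicate block the median was -2.48, and 9 of the 10 genes were past the threshold, as against 7. With both pairs 3 of the 10 were.

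Over all genes, DESeq2 called 1987 higher and 2247 lower, the unfiltered fit 1836 and 2174, the replicate block 1633 and 1903, and both pairs 335 and 342, against 1124 and 1313. The second pair alone gave 2371 higher and 1387 lower of 13815 genes tested.

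For the 45 further ATF4 genes, the second pair gave 5 higher and 9 lower (10 lower without mitochondrial genes). Their median was then -0.09, beside 0.80 for all genes. Both pairs gave 0 higher, 3 lower and a median of -0.75, and limma on log2(TPM + 0.1) gave 15 lower. Of the upstream genes 7 passed with the second pair and 1 with both pairs. Of the ER and XBP1 arm 1 passed with both pairs, 3 with limma on log2(TPM + 1) and 2 on log2(TPM + 0.1).

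With 1 library left out, the median of the 10 genes ran from -2.56 to -2.22, further ATF4 genes lower from 15 to 29 and higher from 1 to 2, and ER and XBP1 arm genes past the threshold from 2 to 10. The lone library left in a group is assumed to vary like the other group.

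At p at or below 1e-05, 3 of the 10 genes had a peak in both A549 lists and 2 in both A549/DDP lists, with 3 regions only in A549 and 2 only in A549/DDP. With lists of equal size these were 3, 2, 3 and 1. At an overlap of 50% no region was in both A549/DDP lists alone, and with 1 list left out this count ran from 1 to 6. No share over all genes or regions was counted at any of these settings. The cause of these shifts was not tested. With 2 libraries a line, a common coefficient of variation of 0.6564 limits what could be called.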
